A study of Mus musculus with 25 samples.

Results

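The 213 gained probe sets were those brighter in every handled mouse than in any non-handled mouse among the mice whose RNA was extracted with columns. They were chosen from the log2 signal of those 17 mice alone: the lowest of the 7 handled mice had to lie above the highest of the 10 non-handled mice. Of 45037 probe sets that were not controls, 226 (0.502%) passed, and 13 of these belonged to 14 gene families that were left out (names starting Atf, Cpeb, Polr3, Gri, Grm, Gabr, Kcn, Rbm, Hnrnp, Srsf, Rab, Pcdh, Nlgn or Nrxn). The same rule turned round found 510 probe sets (1.13%) that were dimmer in every handled column mouse. With quantile normalization 209 were brighter and 415 dimmer, and with equal mean and variance 249 and 447. The order turned round with arrays centred to the same median, where 1018 were brighter and 185 dimmer in every handled column mouse. With the families left out, that centring gave 979 probe sets in place of 213, and leaving out non-handled mouse NH142 gave 381. Of the 213, 195 carried 1 gene in the platform's annotation, from 186 different genes, 3 carried several genes and 15 none. All 213 were kept whatever their signal level.

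The mice were inbred Balb c/J females. Handled pups spent 15 min of every morning away from the mother on postnatal days 1 to 14, and non-handled pups were not disturbed. All were tested for behavior at 8 weeks, and 2 weeks later the CA1 field of the hippocampus, which sends its output to cortex, was dissected and its RNA hybridized, with a separate Affymetrix mouse genome array for each animal. The groups were 7 handled and 10 non-handled mice extracted with RNA/DNA columns, and 4 handled and 4 non-handled mice extracted with Trizol. The mice came from fewer litters than there were mice, and a litter was either handled or not, so that litter lies within handling. Which mouse came from which litter was not known here. Every mouse was therefore treated as independent, and p-values are too small. A probe set is a group of short probes that together measure 1 transcript, and signal is its summarized brightness.

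CA1 holds densely packed pyramidal neurons together with interneurons, astrocytes, oligodendrocytes and microglia, and its RNA is a blend of all of them. Pyramidal neurons carry long axons and large dendritic trees, and depend on sodium channels for firing, on SNARE proteins for releasing and recycling vesicles, and on RNA-binding proteins that splice, export and store messenger RNA. Handling in the first weeks of life is a brief, mild separation that changes the care pups receive on return. In such bulk tissue, fewer cells of a type and less RNA per cell cannot be told apart.

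Several array measures moved with handling. Every array had a trimmed mean signal of 500. The median signal of the arrays was 79.6 to 95.9 in handled and 94.7 to 135 in non-handled column mice, and 115.9 to 141.9 in handled and 138.5 to 162.8 in non-handled Trizol mice. The variance of log2 signal within an array did not overlap between handled and non-handled mice. It was 7.96 to 8.83 against 5.99 to 7.83 in column mice, and 6.638 to 7.732 against 5.932 to 6.628 in Trizol mice. Among all probe sets, 36.6% were higher in handled than in non-handled column mice, with a median log2 difference of -0.17, and the sign of that median turned with quantile normalization (0.03), median centring (0.16) and equal mean and variance (0.04). The part of these array measures in the results below was not tested. Of 43 fixed markers of cell types 40 were measured. None was gained, where 0.473% of all probe sets were, so that none among 40 says little. Grik4 and Kcnj13 could not be gained, as their families were left out. The summed signal of all 11 marker lists overlapped between handled and non-handled column mice. Of 5 interneuron markers 2 were higher in handled column mice, and differences ran from -0.44 (Pvalb) to 1.04 (Gad2). Gad2 differed by 0.50 in Trizol mice, where 2 of the 5 were higher. In Trizol mice the summed signal of 4 endothelial markers was 1349 to 1505 in handled and 1636 to 3106 in non-handled mice, and that of 3 choroid plexus markers 198 to 282 in handled and 285 to 2924 in non-handled mice. Non-handled column mouse NH162 stood apart, with a log2 ratio of 3.24 between the 3' and 5' probe sets of Actb, against 1.54 to 2.02 in the other column mice.

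The gained probe sets were bright. Their mean log2 signal over all 25 arrays had a median of 10.53, against 6.58 for all probe sets. Of the 213, 209 were in the upper 50% of all probe sets by mean log2 signal, 171 in the upper 20% and 100 in the upper 10%. Bright probe sets leaned upward in handled column mice as a whole, since the median difference was -0.65 in the dimmest decile and 0.07 in the brightest. The share of probe sets that were gained was 0 in the dimmest decile and 2.23% in the brightest.

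**Figure D1:**
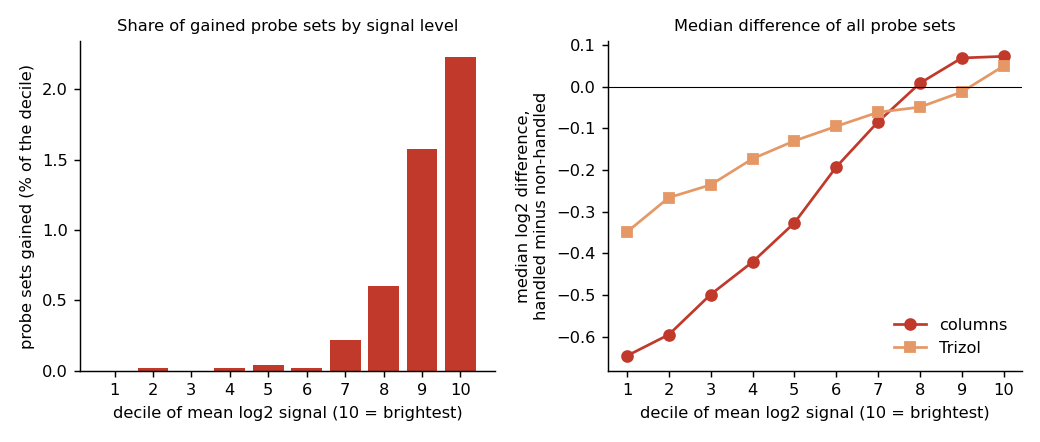
Left, the share of probe sets in each decile of mean log2 signal that were gained in handled column mice (%). Right, the median log2 difference, handled minus non-handled, of all probe sets in each decile, in column mice (circles) and Trizol mice (squares). The share reached 2.23% in the brightest decile, and the column median ran between -0.65 and 0.07.

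The mean log2 signal of the 213 was 10.68, 10.71 and 10.87 (lowest, median, highest) in handled column mice and 9.83, 10.19 and 10.31 in non-handled column mice, an order that the rule itself fixes. The mean of all probe sets in the upper 20% was 10.98, 10.99 and 11 in the handled mice and 10.89, 10.96 and 11 in the non-handled mice, so it overlapped. The difference of single gained probe sets ran between 0.19 and 2.37 with a median of 0.52, a fold of 1.44, and 9 reached a fold of 2. NH162 held the lowest value at 106 of the 213 (49.8%), against 15.2% of all probe sets. Without it, which was tried after the data were seen, the median difference of the 213 was 0.49.

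**Figure D2:**
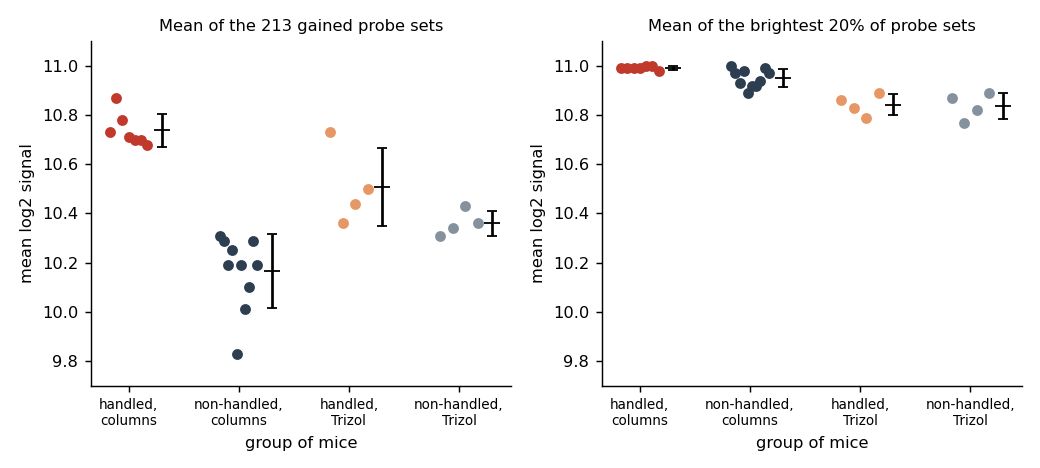
Mean log2 signal per mouse of the 213 gained probe sets (left) and of all probe sets in the upper 20% (right), for handled and non-handled column mice and handled and non-handled Trizol mice. Points are mice, and bars are the group mean and SD. The column groups lie apart on the left because the rule chose them so, and the Trizol groups overlap, at 10.36 to 10.73 in handled and 10.31 to 10.43 in non-handled mice.

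The separation was narrow for many. The gap between the lowest handled and the highest non-handled mouse was under 0.05 for 104 of the 213 and at least 0.2 for 21. Just inside the rule lay Klhdc1, Tle4, Lpgat1, Rasa2 and Armcx1, with gaps of 0.00017 to 0.0023, and just outside lay Ptprg, Far1, a second probe set of Chtop, Abce1 and a probe set with no single gene named (1450072_at), which fell short by 0.00011 to 0.0033. The gap was set at its upper side by handled mice H116 and H123 for 47 probe sets each, and at its lower side by non-handled mouse NH142 for 55.

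Among gained probe sets in the upper 50%, the widest gap belonged to Fa2h, which encodes the hydroxylase that makes 2-hydroxy fatty acids for myelin sphingolipids. Its log2 signal was 10.66, 10.70 and 10.92 (lowest, median, highest) in handled and 9.43, 9.67 and 10.06 in non-handled column mice, a difference of 1.08 ± 0.07 (SE, n = 7 and 10). In Trizol mice Fa2h was at 9.75, 9.43, 9.53 and 9.46 in the handled and 9.74, 9.30, 9.19 and 9.71 in the non-handled mice, so the groups overlapped. Crim1, a membrane protein that binds bone morphogenetic proteins, had a median of 10.90 in handled (10.80 to 11.21) and 10.28 in non-handled column mice (9.83 to 10.42). In Trizol mice Crim1 lay between 10.33 and 10.76 in the handled and 10.21 and 10.79 in the non-handled group.

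Several of the 12 widest gaps lay in genes that act on RNA and protein synthesis. Chtop, which takes part in exporting messenger RNA from the nucleus, had a column median of 10.81 in handled mice (10.73 to 11.12) and 10.25 in non-handled mice (9.50 to 10.40). Ddx3x, an RNA helicase, had medians of 12.35 in handled (12.23 to 12.60) and 11.85 in non-handled column mice (11.69 to 11.97). Tial1, an RNA-binding protein of stress granules, had medians of 10.42 in handled (10.26 to 10.56) and 9.89 in non-handled column mice (9.27 to 10.02). Gspt1, a factor that ends translation at the stop codon, differed by 0.66 ± 0.10. In Trizol mice the differences of the gained probe sets of these 4 genes were all above 0 and between 0.15 and 0.27, and none had an unadjusted p under 0.05. Brighter probe sets of Gspt1 differed little in column mice, by 0.007 (1435000_at), 0.095 (1452168_x_at) and 0.053 (1426736_at). In Trizol mice they differed by 0.04, -0.03 and 0.0008. Dimmer ones differed by -0.07 (1446550_at) and 0.44 (1426737_at) in column mice.

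The others of the 12 were signalling enzymes and membrane proteins. Mapk9, a JNK kinase of the stress response, had a column median of 10.69 in handled (10.43 to 10.93) and 10.04 in non-handled mice (8.84 to 10.16), and a Trizol difference of -0.01 ± 0.16 (SE, n = 4 and 4), whose sign turned with median centring (0.15). Rock1, a kinase of the actin cytoskeleton, differed by 0.98 ± 0.15 in column mice and by 0.39 ± 0.24 in Trizol mice, where 9.81 to 10.71 in handled overlapped 9.24 to 10.43 in non-handled mice. Both Atp6v1b2, a subunit of the proton pump that acidifies vesicles and lysosomes, and Vma21, an assembly factor of that pump, were among the 12. Atp6v1b2 had medians of 11.53 in handled (11.43 to 11.75) and 10.64 in non-handled column mice (9.58 to 11.18). Vma21 had medians of 11.29 in handled (11.14 to 11.37) and 10.57 in non-handled column mice (9.84 to 10.81). Scn2a, the sodium channel of axons, had medians of 12.94 in handled (12.92 to 13.32) and 12.53 in non-handled column mice (12.16 to 12.69).

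The largest differences in column mice came from dim probe sets. Stag2, a subunit of the cohesin ring that holds chromosomes together, differed by 2.37 ± 0.45, with 6.97 to 7.59 in handled and 3.30 to 6.76 in non-handled mice. Ctdsp2, a phosphatase of RNA polymerase II, differed by 1.98 ± 0.38, and Unc13c, a priming factor of synaptic vesicles, by 1.85 ± 0.25. A probe set with no gene named (1432356_at) differed by 1.92 ± 0.26, with 6.27 to 7.05 in handled mice and at most 5.66 in non-handled mice. All 4 were in the lower 50% by mean log2 signal. In Trizol mice Stag2 differed by 0.62 ± 0.42, Ctdsp2 by -0.05 ± 0.94, Unc13c by 0.08 ± 0.84 and 1432356_at by 0.53 ± 0.31. These 4 were chosen for mention after their values were seen. Brighter probe sets of the same genes did not show differences of that size in column mice. They stood at 0.18 for Stag2, at 0.05 and 0.25 for Unc13c and at -0.47 and -0.08 for Ctdsp2.

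The 8 Trizol mice were not used by the rule, so they allow a test. They may have shared litters with column mice, so the test is not known to be independent of the rule. With limma, over all 45037 probe sets and after Benjamini-Hochberg adjustment, 0 probe sets passed an adjusted p of 0.05 (0% of all), and so did 0 of the 213. The smallest adjusted p among them was 0.755. At an unadjusted p under 0.05, 13 of the 213 (6.1%) were higher in handled mice, where 1.4% of all probe sets were, and 0 were lower, where 4.98% of all were. The count of 13 moved with 1 mouse left out, to 6 without non-handled mouse NH147 (1.25% of all probe sets) and 25 without NH144 (2.76% of all). With a limma prior without a trend it was 2, a smaller share than the 1.21% of all probe sets there. In direction, 182 of the 213 (85.4%) were higher in handled Trizol mice, where 42.5% of all probe sets were, and the median difference of the 213 was 0.16, against -0.07 for all.

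The level of the gained probe sets was set beside these shares, since bright probe sets leaned upward in Trizol mice too. In the upper 20% by mean log2 signal, 149 of 171 gained probe sets (87.1%) were higher in handled Trizol mice, against 55% of all probe sets there, and 11 (6.43%) had an unadjusted p under 0.05 upward, against 1.65%, and 0 downward, against 3.13%. Of the 213, 182 lay above the median Trizol difference of all probe sets in their own decile of signal. The direction was carried unequally by the 4 handled mice. H113 lay above all 4 non-handled mice at 66.7% of the 213 (13.6% of all probe sets), H130 at 31.9% (19.6%), H131 at 29.6% (10.3%) and H126 at 19.7% (18.8%). Without H113, 68.5% of the 213 were higher in handled mice, where 44.2% of all were, and the median difference was 0.09, against 0.16 with it. The log2 ratio between the 3' and 5' probe sets of Gapdh, a sign of RNA quality, was 1.58 in H113, the lowest of the handled Trizol mice (1.58 to 1.95), against 1.495 to 1.76 in the non-handled ones, and its part in the result was not tested.

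**Figure D3:**
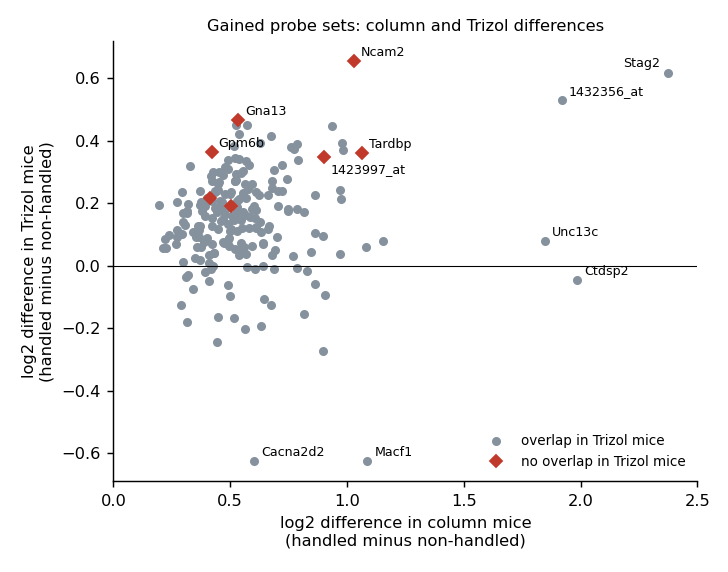
Each point is 1 of the 213 gained probe sets, with its log2 difference, handled minus non-handled, in column mice on the horizontal axis and in Trizol mice on the vertical axis. Diamonds are the 7 whose lowest handled Trizol mouse lay above the highest non-handled one. Of the 213, 182 lie above 0 on the vertical axis, and Macf1 and Cacna2d2 lie lowest, at -0.63 each.

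In Trizol mice, 7 gained probe sets (3.29%) were again higher in every handled than in every non-handled mouse, where 0.908% of all probe sets were. None of the 213 was lower in every handled Trizol mouse, where 2.94% of all were. In the upper 50% by signal the separated were 3.35% of gained probe sets, against 1.04% of all upward and 2.71% of all downward, and in the upper 20% they were 3.51%, against 1.5% upward and 1.22% downward. The 7 were Ncam2, Gna13, Gpm6b, Tardbp, Scamp1, Hccs and a probe set with no gene named (1423997_at). With 1 Trizol mouse left out in turn the count was 9 to 22, as fewer mice separate more easily, and the share of all probe sets was then 1.57% to 2.51%.

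Ncam2, an adhesion molecule of axons and synapses, stood at 8.62, 8.87, 8.58 and 8.42 in the 4 handled Trizol mice and at 7.85, 7.80, 8.27 and 7.95 in the 4 non-handled ones. Its difference of 0.65 ± 0.21 was the largest of the 213 in Trizol mice, with an unadjusted p of 0.0074 and an adjusted p of 0.755 (limma, Benjamini-Hochberg). In column mice Ncam2 was at 8.11, 8.51 and 9.10 (lowest, median, highest) in the handled and 7.00, 7.57 and 7.85 in the non-handled mice. Gna13, an alpha subunit of heterotrimeric G proteins, stood at 10.03, 9.65, 9.63 and 9.81 in handled and at 9.39, 9.12, 9.22 and 9.52 in non-handled Trizol mice. The difference of Gna13 was 0.47 ± 0.16, with a limma adjusted p of 0.755.

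Gpm6b, a proteolipid of neuronal and glial membranes, stood at 13.08, 12.98, 13.15 and 12.92 in handled and at 12.66, 12.83, 12.72 and 12.46 in non-handled Trizol mice, 0.36 ± 0.14 apart. Tardbp encodes TDP-43, an RNA-binding protein that represses splicing of cryptic exons. It stood at 10.27, 10.30, 10.76 and 10.48 in handled and at 10.01, 10.21, 10.14 and 10.01 in non-handled Trizol mice, 0.36 ± 0.15 apart. In column mice Tardbp ranged between 9.92 and 10.63 in the handled and 7.67 and 9.84 in the non-handled group, where NH162 was the lowest. Scamp1, a carrier protein of secretory vesicles, differed by 0.22 ± 0.13 and Hccs, which attaches heme to cytochrome c, by 0.19 ± 0.13 in Trizol mice. The adjusted p in limma was 0.774 for Gpm6b, 0.775 for Tardbp, 0.807 for Scamp1 and 0.823 for Hccs. The groups of each of these genes did not overlap, and none passed the adjusted test.

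**Figure D4:**
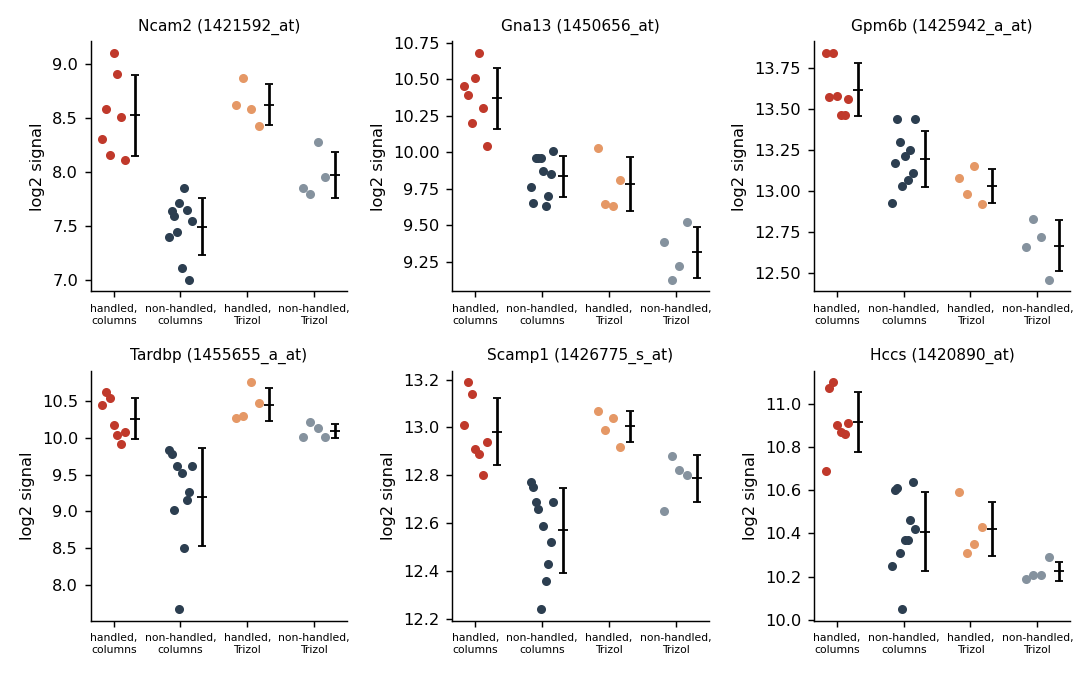
Log2 signal per mouse of the 6 gained probe sets with a named gene that were higher in every handled mouse under both extractions. Groups are handled and non-handled column mice and handled and non-handled Trizol mice. Points are mice, and bars are the group mean and SD. The smallest Trizol gap was that of Hccs, with 10.31 to 10.59 in handled and 10.19 to 10.29 in non-handled mice.

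The promoters of the 4 of these genes that also had an unadjusted p under 0.05 in Trizol mice are printed because these genes were separated under both extractions. Each runs over the 250 bases before and the 50 after the start, 5′ to 3′, from RefSeq on build GRCm38.p6. Ncam2 lies at chr16:81200447-81200746 on the plus strand, Gna13 at chr11:109362544-109362843 on the plus strand, Gpm6b at chrX:166238693-166238992 on the plus strand and Tardbp at chr4:148626947-148627246 on the minus strand. Capitals mark matches to the motifs named after the sequences.
Ncam2: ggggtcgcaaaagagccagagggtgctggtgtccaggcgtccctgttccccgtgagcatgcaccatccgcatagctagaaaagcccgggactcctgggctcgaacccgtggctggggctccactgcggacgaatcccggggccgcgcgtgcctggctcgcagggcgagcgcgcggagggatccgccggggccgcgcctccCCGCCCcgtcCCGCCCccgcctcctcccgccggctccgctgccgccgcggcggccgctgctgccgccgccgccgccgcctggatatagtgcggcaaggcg
Gna13: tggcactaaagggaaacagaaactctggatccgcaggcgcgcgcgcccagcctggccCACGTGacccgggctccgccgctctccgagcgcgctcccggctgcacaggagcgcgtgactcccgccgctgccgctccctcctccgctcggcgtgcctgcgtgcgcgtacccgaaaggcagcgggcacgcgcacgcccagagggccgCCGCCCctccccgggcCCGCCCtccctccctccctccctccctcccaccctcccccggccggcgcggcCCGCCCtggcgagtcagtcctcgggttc
Gpm6b: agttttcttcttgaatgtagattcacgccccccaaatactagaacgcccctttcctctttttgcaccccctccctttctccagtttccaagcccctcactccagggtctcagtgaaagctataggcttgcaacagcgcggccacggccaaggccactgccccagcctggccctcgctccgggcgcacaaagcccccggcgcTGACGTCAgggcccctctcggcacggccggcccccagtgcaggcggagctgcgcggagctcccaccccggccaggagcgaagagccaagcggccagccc
Tardbp: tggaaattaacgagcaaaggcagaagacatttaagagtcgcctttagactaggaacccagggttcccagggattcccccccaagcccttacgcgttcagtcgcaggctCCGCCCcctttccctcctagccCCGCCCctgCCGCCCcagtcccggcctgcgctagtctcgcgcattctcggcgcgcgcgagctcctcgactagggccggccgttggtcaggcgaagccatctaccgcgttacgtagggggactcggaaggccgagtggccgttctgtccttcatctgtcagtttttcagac
The capitals are GC boxes (GGGCGG on either strand) in Ncam2, Gna13 and Tardbp, an E-box (CACGTG) in Gna13 and a cyclic AMP response element (TGACGTCA) in Gpm6b, and no base lay in more than 1 motif. The windows of Ncam2 and Gna13 were 75.7% and 76.7% G and C. Promoters were found for 151 of the 186 genes, 201 windows in all. The cyclic AMP response element was in 10 of the 201 (4.98%), against 3.2% of windows of genes in the upper 20% by signal and 1.79% of all 32851 windows. The GC box was in 63.7% of the 201, in 65.1% of the windows of the bright genes and in 35.7% of all. The CCAAT box (CCAAT) was in 31.8% of the 201, the ETS site (CCGGAAG) in 15.9%, the TATA box (TATAAA) in 7.46%, the YY1 site (AAGATGGC) in 3.98% and the NRF1 site, searched as its palindrome on both strands, in 1.99%. For bright genes those shares were 37.1%, 17%, 6.86%, 4.86% and 2.19%, and for all windows 37.4%, 8.86%, 13.6%, 2.75% and 0.971%. The E-box was in 9.45% of the 201 windows, in 10.4% of those of bright genes and in 7.15% of all. Such matches are letters and not tested sites.

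The other gained probe sets with an unadjusted p under 0.05 in Trizol mice overlapped between the groups. Both probe sets of Napb, the beta SNAP protein that helps take apart SNARE complexes after vesicle fusion, were among them. The first Napb probe set (1450888_at) stood at 13.63, 13.69, 13.13 and 13.45 in handled and at 12.96, 12.88, 13.25 and 13.01 in non-handled Trizol mice, 0.45 ± 0.16 apart with an adjusted p of 0.755 in limma. In it H130 lay below NH146, and the other 3 handled mice lay above all non-handled mice. The second Napb probe set (1427470_s_at) differed by 0.37 ± 0.17. Erbin, a scaffold bound to the receptor ErbB2, differed by 0.42 ± 0.15, and Mef2c, a transcription factor of activity-dependent neuronal genes, by 0.45 ± 0.20. The rest were Sh3bgrl (0.45 ± 0.19), Tmem30a, a partner of the flippases that move phospholipids (0.39 ± 0.17), Bzw1 (0.34 ± 0.15) and Naa50, an N-terminal acetyltransferase (0.30 ± 0.14).

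Of the 213, 31 were lower in handled Trizol mice, and none of these had an unadjusted p under 0.05. Macf1, which links microtubules to actin, stood at 9.24, 6.70, 9.17 and 9.45 in handled and at 9.05, 9.44, 9.26 and 9.31 in non-handled Trizol mice, a difference of -0.63 ± 0.44 with H126 far below the other mice. Cacna2d2, an auxiliary subunit of calcium channels, stood at 8.13, 6.85, 8.34 and 7.99 in handled and at 8.79, 8.70, 8.23 and 8.10 in non-handled Trizol mice, with H126 again the lowest. Drosha, the nuclease that starts microRNA processing, differed by -0.24 ± 0.20, and Sfrp1, a secreted Wnt antagonist, by -0.27 ± 0.32.

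Agreement between probe sets of 1 gene was read in 2 ways. Firstly, 9 genes had 2 gained probe sets each, and in 8 of them both were higher in handled Trizol mice. Cdh2, the N-cadherin of synaptic junctions, was the exception: its probe sets differed by 0.64 ± 0.13 (1418815_at) and 0.56 ± 0.09 (1449244_at) in column mice, and by 0.00 ± 0.17 and -0.20 ± 0.19 in Trizol mice, where the sign for 1418815_at turned with median centring (0.16). The pair of Dlat, the acetyltransferase subunit of pyruvate dehydrogenase, differed by 0.50 and 0.31 in column mice, and by 0.12 and 0.17 in Trizol mice. The pair of Scn2a differed by 0.50 and 0.81 in column mice and by 0.23 and 0.17 in Trizol mice. For Mtch2, an insertase of the outer mitochondrial membrane, these values were 0.48 and 0.39 in column mice and 0.23 and 0.19 in Trizol mice. Vma21 had 0.79 and 0.48 in column mice and 0.39 and 0.31 in Trizol mice. Itfg1, Mtpn and Ivns1abp, an actin-binding kelch protein, had Trizol differences of 0.16 to 0.24, and Napb, the last of the 9, had the 0.45 and 0.37 given above.

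Secondly, all but 24 of the 186 genes had other probe sets on the array that did not pass the rule, 453 in all. Of these, 287 (63.4%) were higher in handled column mice, against 36.6% of all probe sets, with a median difference of 0.14. Of the 336 in the upper 50% by mean log2 signal, 240 (71.4%) were higher in handled column mice, against 48.9% of all there, and 231 (68.8%) in handled Trizol mice, against 47.1%. In Trizol mice 11 of the 336 (3.27%) had an unadjusted p under 0.05 upward and 4 downward, against 1.46% and 4.42% of all there, and 0 passed the adjusted test in limma. Of 150 genes with another probe set in the upper 50%, 81 had all of these higher in handled column mice, 42 had both directions and 27 had all of them lower. Of the 336, 7 were lower in every handled than in every non-handled column mouse, where 1.84% of all probe sets there were. They belonged to Timm44, Aldh2, Ttc3, Pnkd, Ctdsp2, Smim10l1 and Dnaja2, and were chosen for mention after their values were seen. The largest column differences among them were -2.40 ± 0.35 for Timm44 (1448801_a_at), -2.03 ± 0.23 for Aldh2 (1434988_x_at) and -1.55 ± 0.12 for Ttc3 (1447908_x_at), each against a gained probe set of the same gene that was higher. In Trizol mice these 3 differed by -0.05 ± 0.16 for Timm44, -0.99 ± 0.17 for Aldh2 and -0.30 ± 0.23 for Ttc3, with a limma adjusted p of 0.302 for Aldh2. The column values share their mice with the rule and are a description.

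**Figure D5:**
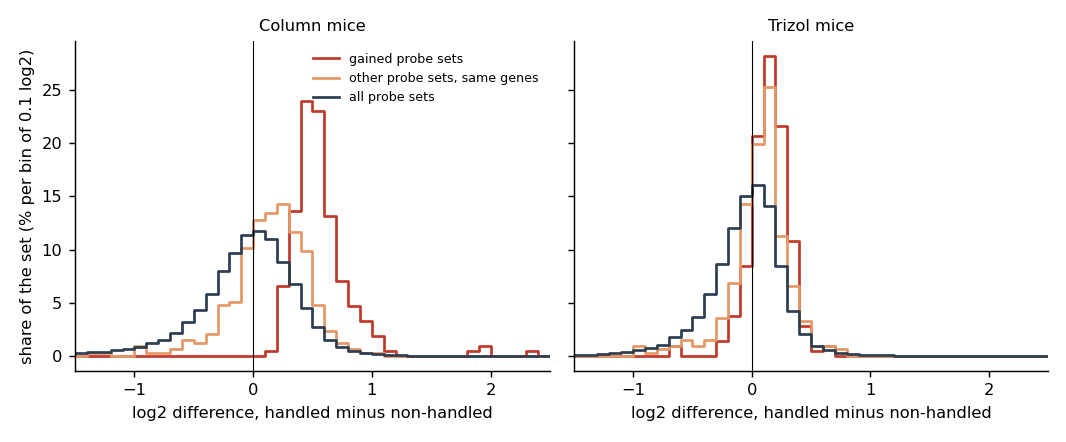
Share of probe sets (% per bin of 0.1) by log2 difference, handled minus non-handled, in column mice (left) and Trizol mice (right), for the 213 gained probe sets, the 336 other probe sets of their genes in the upper 50% by mean log2 signal, and all probe sets there. The other probe sets lie between the gained ones and all probe sets in column mice, with medians of 0.52 for the gained, 0.16 for the other and -0.01 for all probe sets.

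Single genes differed in how far their probe sets went together. All 3 other probe sets of Rock1 in the upper 50% were higher in handled column mice, by 0.34 to 0.59, and higher in handled Trizol mice, by 0.18 to 0.31. Ddx3x had 2 others, at 0.31 and 0.71 in column mice and 0.19 and 0.40 in Trizol mice. The second Chtop probe set, just outside the rule, differed by 0.51 in column mice and 0.07 in Trizol mice. Gpm6b had a brighter probe set (1423091_a_at) that differed by -0.03 in column mice and 0.17 in Trizol mice. Tardbp had 2 others higher in handled column mice, at 0.48 and 0.33, and 2 lower, at -0.25 and -0.26. In Trizol mice these 4 were at 0.21, -0.03, -0.02 and 0.06. Of 5 other Gna13 probe sets in the upper 50%, 3 were higher in handled column mice (0.14 to 0.37) and 2 were lower (-0.07 and -0.06). In Trizol mice the first 3 of Gna13 were at 0.06, -0.02 and 0.18, and the other 2 at -0.42 and -0.36. The other Ncam2 probe set in the upper 50% (1425301_at) differed by 0.59 in column mice but by 0.01 ± 0.43 in Trizol mice. That of Hccs (1420889_at) differed by 0.48 and -0.27, and that of Scamp1 (1453054_at) by 0.21 and 0.24. Another Atp6v1b2 probe set (1415814_at) differed by 0.14 in column mice, against 0.97 for the gained one, and 1 other of Tial1 (1455675_a_at) differed by -0.39. Probe sets of 1 gene can measure different transcript ends, and 19 of the 213 were of the type that can match several transcripts (s_at) and 9 of the type with less specific probes (x_at).

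By function, 56 of the 213 (26.3%) fell in 19 of 20 lists of genes, a count with no share of all probe sets beside it. Of the cell cycle and DNA repair list 0 of 402 probe sets were gained. Of all single-gene probe sets outside the families left out 0.571% were, so that none among 402 says little. The shares below are of list probe sets in the upper 50% by mean log2 signal, where 1.01% of single-gene probe sets outside the families left out were gained. No list had an adjusted call in Trizol mice. Proteasome and chaperones had 5 gained (2.22%): Psme4, which opens the proteasome as the activator PA200, Psmc5 and Psmd1, subunits of its regulatory particle, Dnajc5, the chaperone of synaptic vesicles, and Dnaja2, a partner of Hsp70. All 5 were higher in handled Trizol mice (0.08 to 0.34), while among all of the list's probe sets in the upper 50% 2 had an unadjusted p under 0.05 upward and 6 downward. Ubiquitin conjugation and removal had 5 gained (1.03%), among them Cul3, a scaffold of ubiquitin ligases (column difference 0.55 ± 0.08), and Usp7, a deubiquitinase (0.86 ± 0.17). Values given for genes of the lists are those of gained probe sets, which others of the same gene need not share. Other probe sets of Cul3 differed by 0.23 to 0.42 in column mice. Those of Usp7 differed by -0.02 to 0.75, with 0.06 for the brightest of them (1419920_s_at).

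Synaptic scaffolds and adhesion had 5 gained probe sets (2.36%) of 4 genes. Besides Ncam2 and Cdh2 these were Dlgap1, a scaffold of the postsynaptic density (column difference 0.44 ± 0.07, Trizol 0.19 ± 0.17), and Epha3, a guidance receptor of axons (0.76 ± 0.22 and 0.38 ± 0.21). Of all the list's probe sets in the upper 50%, 66.5% were higher in handled column mice and 48.1% in handled Trizol mice. Channels and pumps had 4 (2.34%), namely both Scn2a probe sets, Atp6v1b2 and Cacna2d2. Solute carriers had 4 (1.57%): Slc35a2 and Slc35a3, which carry nucleotide sugars into the Golgi, and Slc39a6 and Slc39a7, zinc transporters.

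Splicing had 4 gained (1.95%): Srpk2, a kinase of splicing factors (0.61 ± 0.09 in column mice), Khdrbs1, the RNA-binding protein Sam68 (0.53 ± 0.10), Qk, the RNA-binding protein quaking of myelinating glia (0.53 ± 0.10), and Elavl4, the neuronal HuD (0.58 ± 0.17). All 4 were higher in handled Trizol mice, by 0.12 to 0.21. RNA helicases, export and decay had 3 (1.41%), with Ddx3x, Drosha and Cstf2t, a factor of messenger RNA cleavage. Nuclear transport had 2 (2%), the importins Ipo5 (0.53 ± 0.09) and Kpna2 (0.33 ± 0.08), with Trizol differences of 0.17 and 0.32. Kinases of signalling cascades had 4 (1.27%): Mapk9, Rock1, Camk1d and Csnk1d. Phosphatases had 3 (1.09%): Ppm1a, Ptprz1, a receptor phosphatase of glia (0.55 ± 0.08 and 0.30 ± 0.17), and Ppp4r3b. Motors and cytoskeleton had 3 (1.28%), with Myo10, Kif21a and Macf1. 

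Lists with a smaller share than 1.01% were translation (2, 0.524%), mitochondrial energy metabolism (2, 0.694%), transcription and Mediator (2, 0.727%), vesicle traffic and endosomes (3, 0.777%), chromatin remodelling (2, 0.855%), lipid and membrane metabolism (1, 0.613%), GTPase regulators (1, 0.513%) and zinc finger and BTB proteins (1, 0.218%). In the first of these the initiation factor Eif5 and the mitochondrial ribosomal protein Mrpl50 were gained, while 30.4% of the list's probe sets in the upper 50% were higher in handled column mice. Among mitochondrial genes the import proteins Timm44 and Tomm70a were gained, while 28.5% of that list's probe sets in the upper 50% were higher. The chromatin genes were Smarca5, the motor of ISWI remodellers (0.53 ± 0.05 in column mice), and Nsd3, a histone methyltransferase (0.97 ± 0.15).

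Receptors outside the lists were named after their values were seen. Ednrb, the endothelin B receptor of astrocytes, had a column median of 12.17 in handled (12.08 to 12.32) and 11.65 in non-handled mice (10.65 to 11.93). Igf1r, the receptor of insulin-like growth factor, differed by 0.67 ± 0.11 in column mice, Lifr, the receptor of leukemia inhibitory factor, by 0.55 ± 0.09, Notch2 by 0.50 ± 0.10 and Itgb1, an integrin, by 0.90 ± 0.17. In Trizol mice their differences were 0.13 for Igf1r, 0.05 for Lifr, 0.11 for Notch2, 0.10 for Itgb1 and 0.05 for Ednrb. Sv2a, a glycoprotein of synaptic vesicles, differed by 0.83 ± 0.18 in column mice and by -0.02 ± 0.23 in Trizol mice, and App, the amyloid precursor protein, by 0.34 ± 0.07 and -0.07 ± 0.21. All of these overlapped between the Trizol groups. Other probe sets of these genes did not all go the same way in column mice. The brightest other of Igf1r (1452982_at) differed by 0.04 and that of App (1427442_a_at) by 0.02. That of Itgb1 (1452545_a_at) differed by 0.54 and that of Ednrb (1423594_a_at) by 0.29. That of Notch2 (1451889_at) differed by -0.97 and that of Lifr (1425107_a_at), at a mean log2 signal of 5.18, by -0.55. Dimmer others of Igf1r ran from -0.49 to -0.05.

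Features that the rule did not use were set beside those of other genes. The median length of the 185 genes with a known length was 39.7 kb, against 29.2 kb for genes in the upper 20% by signal and 20.3 kb for all genes. Of the 186, 11 (5.91%) lay on the X chromosome, against 3.97% of the bright genes and 3.39% of all. The GC content of their promoter windows had a median of 63.7%, against 62% for bright genes and 52.7% for all windows. These are descriptions, and no test was run on them.

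The gained probe sets varied together from mouse to mouse in column mice and in handled Trizol mice, but little in non-handled Trizol mice. The column mice are those that the rule used, so their correlations are a description. After the group mean was subtracted, the median Pearson correlation over their 22578 pairs was 0.28 in column mice (n = 17), with 78.1% of pairs above 0, and 0.21 in Trizol mice (n = 8), with 64.2% above 0. Within the 7 handled column mice the median was 0.18 and within the 10 non-handled ones 0.32. For other probe sets in the upper 20% these medians were 0.00 in the handled and 0.02 in the non-handled mice. Within the 4 handled Trizol mice the median of the gained probe sets was 0.38, with 67.7% of pairs above 0, and within the 4 non-handled ones 0.08, with 53.1% above 0. For the others it was 0.04 in both Trizol groups, with 51.7% of pairs above 0 in the handled and 51.8% in the non-handled one. Without NH162, an added setting, the median over non-handled mice was 0.24 for the gained probe sets and 0.02 for the others. The points share arrays and their scaling, and the mean of the 213 ran against the array's median signal, with r of -0.65 in handled (n = 7) and -0.62 in non-handled column mice (n = 10). With the 3' to 5' ratio of Gapdh the r was 0.18 in handled (n = 7) and -0.71 in non-handled column mice (n = 10), where NH162 had the highest ratio (1.71) and the lowest mean of the 213 (9.83). In Trizol mice the r with the Gapdh ratio was -0.84 in handled and -0.82 in non-handled mice (n = 4 each). With the array's median signal it was -0.61 in handled and -0.23 in non-handled Trizol mice. The part of the Gapdh ratio was not tested.

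Pairs of probe sets of the same gene had a median r of 0.49 in column mice and 0.74 in Trizol mice, over 9 pairs. In column mice the highest was Itfg1, at 0.80 (0.86 in Trizol mice), and the lowest Mtpn, at 0.15 (0.27). In Trizol mice the highest was Dlat, at 0.92, and the lowest Napb, at 0.12. Among different genes the highest pairs in column mice were Got2, the mitochondrial aspartate aminotransferase, with Napb (1427470_s_at), at 0.95, and Ivns1abp with the same Napb probe set, at 0.94. In both pairs NH162 held the lowest value, at 9.29 for that Napb probe set. In Trizol mice these pairs had r of 0.47 and 0.70 (n = 8).

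A few went their own way. Fa2h had a mean r of -0.37 with the other gained probe sets in column mice, Zadh2 -0.26 and Ncam2 -0.21, while Mtch2 (1448654_at) had 0.47. NH162, the lowest mouse for 106 of the 213, was the highest non-handled mouse for Fa2h. Fa2h and Ncam2 were thus separated between handled and non-handled column mice without following the shared variation, and of these Ncam2 was also separated in Trizol mice and Fa2h was not.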

How the data were processed

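Deposited values are intensity that the authors summarized with MAS 5.0 in Affymetrix Expression Console 1.1, as linear signal per probe set with no distribution normalization. All 25 arrays were used after log2, with no offset and no filter on low signal, and 64 control probe sets were left out. Extraction was read from positions in the sample list that the labels give. The members and the lists of genes were chosen with earlier results of these data known. Column mice were only described. Handled and non-handled Trizol mice were compared two-sided with limma 3.58.1 (R 4.3.3, trended prior) over 45037 probe sets with Benjamini-Hochberg adjustment at 0.05. In data simulated for that Trizol comparison over 45037 probe sets, the fit found 68% of changes of 1 and 99% of changes of 2 on the log2 scale, with 9 false calls among 176. The changes were placed only in the brighter 50% of probe sets, with noise independent between probe sets. Changes smaller than 1 were not simulated. Errors of column differences are pooled standard errors. Genes named are those with the 12 widest column gaps in the upper 50%, those separated in Trizol mice in either direction, those with several gained probe sets, the 5 nearest on each side of the rule and up to 3 per list. Members of lists beyond 3, the receptors, the genes with the largest differences, and those with an unadjusted p under 0.05 or a lower Trizol value were added after their values were seen. Gene names come from the array's annotation (34958 probe sets with 1 gene), with 34754 symbols updated through gene identifiers. Alternatives were 3 scalings, an offset of 32, the upper 50% alone, other limma settings and each mouse left out. Python 3.11.15, pandas 2.3.3 and matplotlib 3.10.9 were used. Precision rests on the number of mice.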

Additional observations from a re-analysis of the deposited data

Results flagged for a closer look

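For the probe sets named by rule, 136 groups of 4 to 10 mice were checked for a mouse far from the rest of its group, and 11 such values were found, in 5 mice. Chance gives about 1 in 20 groups. NH162, a non-handled column mouse, was the lowest at Chtop (9.50), Mapk9 (8.84), Scn2a (1435933_at, 12.16), Ivns1abp (1425718_a_at, 10.34) and Napb (1427470_s_at, 9.29), and the highest at Fa2h (10.06). Non-handled column mouse NH163 was the lowest at Crim1 (9.83). Among handled column mice, H109 was the highest at Scn2a (1435933_at, 13.32) and Mtpn (1420475_at, 11.48), and H117 at Napb (1450888_at, 13.63). Handled Trizol mouse H126 was the lowest at Vma21 (1452607_at, 10.52). All are log2 signal.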

How the results depend on the processing

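No paired analysis was possible because handled and non-handled mice share no mouse numbers. The rule with its families left out gave 979 probe sets with arrays centred to the same median, 207 of them among the 213, and 198 with quantile normalization, 153 of them among the 213. Median centring moved the median column difference of all probe sets by more than 0.1, to 0.16, and upward calls made up 84.6% of all separated probe sets, against 30.7% as deposited. With quantile normalization they made up 33.5%, and with equal mean and variance 35.8%. Leaving out 1 column mouse gave 222 to 381, the highest without NH142. With median centring the Trizol count at an unadjusted p under 0.05 was 57, where 5.52% of all probe sets passed upward. The count of separated probe sets was then 28, where 3.64% of all were separated, and the median difference was 0.32, against 0.09 for all. Pair correlations under that centring were 0.58 and 0.73 in handled and non-handled column mice, and 0.72 and 0.31 in handled and non-handled Trizol mice, against 0.38 and 0.08 as deposited (n = 4 each). Centring shifts all probe sets of an array by the same amount, and no value for other probe sets is given beside these. They are thus not read as variation shared by the gained probe sets alone. The unadjusted count was 2 with a prior without a trend, a smaller share than the 1.21% of all probe sets that passed upward there. It was 20 with a fit over all 25 arrays, where 1.45% of all passed upward. With 1 Trizol mouse left out that count was 6 to 25 (8 without H113 or NH138, 23 without H126, 25 without NH144, 6 without NH147), the separated count 9 to 22 (18 without H126 or NH144, 14 without H130, 16 without H131, 22 without NH146) and the share higher in handled mice 68.5% to 90.6%, while the median was 0.09 to 0.19, lowest without H113. Of all probe sets, 0.886% to 2.76% then passed that p upward, 1.57% to 2.51% were separated and 41.6% to 45.3% were higher. The sign of Mapk9 turned with median centring (0.15) and array weights (0.012), and that of Cdh2 (1418815_at) with median centring (0.16) and array weights (0.0069). With 1 mouse left out, signs turned within -0.035 to 0.15 for Fa2h, -0.0033 to 0.19 for Crim1, -0.099 to 0.11 for Mapk9, -0.074 to 0.40 for Atp6v1b2, -0.042 to 0.25 for Dlat (1426264_at), -0.11 to 0.11 for Cdh2 (1418815_at), -0.0014 to 0.34 for Scn2a (1427281_at) and -0.061 to 0.29 for Mtpn (1420475_at). The mouse was H113 for all of these but Crim1 and Cdh2, NH144 for Fa2h and Crim1, NH146 for Fa2h and Cdh2, H126 for Cdh2, H130 and NH147 for Mapk9 and Cdh2, and NH138 for Mapk9. The causes were not tested. None of the 213 passed an adjusted p in limma under any setting. Precision in Trizol mice is limited by 4 mice a group, and all Trizol differences of the 213 were smaller than 1 on the log2 scale.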
